A study of Homo sapiens with 6 samples.

Results

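The genes described are 47 DNA repair and damage checkpoint genes, taken by name from a list that spans 8 groups of repair roles, out of 58523 genes with summed transcript counts. All 47 were matched to a single gene and all 47 passed the filter on low counts that left 22580 genes to test. RNA was sequenced from A375, an established human melanoma cell line bought from ATCC, in 3 untreated cultures (control replicates 1 to 3) and in 3 cultures (treated replicates 4 to 6) that received hMGL for 24 h. hMGL is an engineered human enzyme that degrades methionine. Both groups were grown in the same serum-containing medium, all cultures were of this line, and the labels give no vehicle or inactive enzyme for the controls. The study's design text calls the cultures independent.

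As background, a cell repairs its DNA by several routes. Breaks through both strands are either copied from the sister chromatid by homologous recombination, which works in S and G2 phase, or joined directly by end joining. The Fanconi anaemia pathway opens crosslinks between the strands, mismatch repair corrects copying errors, nucleotide excision repair cuts out bulky lesions, and base excision repair replaces damaged bases. The checkpoint kinases ATM and ATR sense breaks and stalled forks and halt the cell cycle through CHEK2 and CHEK1. Many recombination and Fanconi genes are transcribed with the cell cycle through E2F factors, while many end joining and excision genes are expressed in resting cells too.

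Libraries held 50760266 to 59954677 estimated counts. The melanoma and neural crest markers SOX10, CSPG4, NGFR, MITF and S100B were expressed, while the pigment genes PMEL, MLANA, TYR and DCT had group means of at most 2.05 CPM (counts scaled to library size). Of markers of other cell types, EPCAM had means of 0.137 and 0.112 CPM in control and treated cells, PTPRC 0.146 and 0.128 CPM, and HBB no count in any library. Other listed markers of these types were higher. The epithelial KRT18 had means of 345 and 327 CPM, KRT8 22.7 and 22.4 CPM, and KRT14 16.6 and 9.10 CPM. The leukocyte marker CD68 had 31.2 and 37.4 CPM and LYZ 6.99 and 2.19 CPM. The fibroblast marker PDGFRB had 9.65 and 2.08 CPM, and the endothelial KDR 5.52 and 4.97 CPM. The summed CPM of the 7 fibroblast markers was 14.8 to 16.6 in control and 6.53 to 7.22 in treated libraries. That of the 6 endothelial markers was 7.40 to 7.995 and 8.76 to 9.54, of the 7 leukocyte markers 36.3 to 40.5 and 38.8 to 41.2, and of the 7 epithelial markers 375 to 397 and 356 to 364. Genes of cell division moved with the treatment. All 23 listed genes of the replication fork fell, with a median log2 fold change of −1.25, and their summed CPM was 3383 to 3536 in control and 1409 to 1424 in treated libraries. Of 18 listed mitotic genes, 16 fell and 1 rose, with summed CPM of 3967 to 4095 and 2818 to 3000. The part of these 2 lists in the results below, where repair genes moved in both directions, was not tested. In cultured cells measured in bulk, fewer cells in S phase and less RNA per cell cannot be told apart.

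The 47 listed repair genes moved in both directions, with more of them lower than higher in treated cells. They were chosen with earlier results of these data known. In edgeR's quasi-likelihood test, 30 of 47 fell and 12 rose, while the other 5 missed an adjusted p of 0.05. Among all 22580 genes tested 34.5% fell and 34.9% rose (69.4% in either direction), and among the 15421 protein-coding genes tested 40.3% fell and 38.0% rose. The share of the 47 genes that fell was 63.8% and the share that rose was 25.5%. For 93 other repair genes in the same roles the shares were 41.9% and 38.7%, with a median log2 fold change of −0.020. The median log2 fold change of the 47 genes was −0.46, against −0.015 for all genes tested. With limma on log2(TPM + 1) and log2(TPM + 0.1) in place of counts (TPM is a level per transcript length, scaled to the library), the median was −0.27 and −0.29, against 0.032 and 0.075 for all genes. A fall of at least 2-fold was found for 11 of the genes (12.6% of all genes tested), and a rise of at least 2-fold for 3 (14.6%). In the same 2 limma fits the 11 became 6 and 7. The CPM of the 3 treated libraries lay wholly to a single side of the 3 controls for 42 of the 47 genes, as it did for 73.3% of all genes tested.

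**Figure D1:**
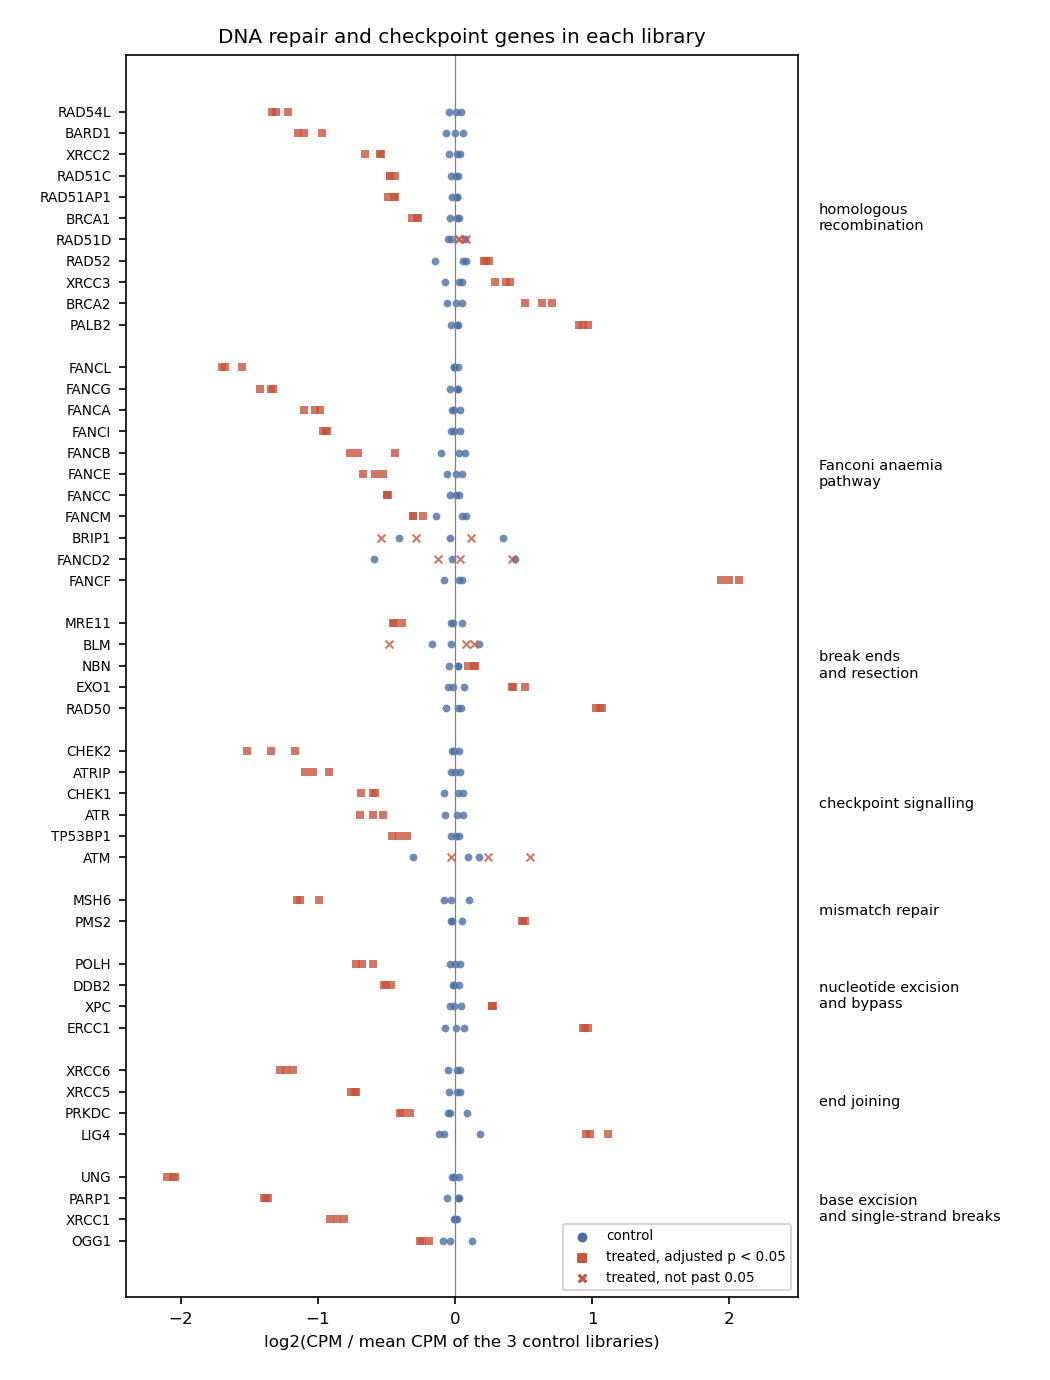
Each row is a gene, grouped by repair role, and each point is a library, placed on the x axis by log2 of its CPM over the mean CPM of the 3 control libraries (circles, control; squares, treated and past an adjusted p of 0.05; crosses, treated and not past it). The treated points of UNG lie farthest to the left and those of FANCF farthest to the right, and in the 5 genes with crosses the groups overlap.

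Among the 47 listed genes, the fold changes differed between roles and within them, which was not tested. The median log2 fold change was −1.12 over 4 genes of base excision and nick repair, −0.61 over 6 checkpoint genes, −0.59 over 11 genes of the Fanconi anaemia pathway, −0.55 over 4 end joining genes and −0.29 over 11 recombination genes. It was −0.30 over 2 mismatch repair genes, −0.11 over 4 genes of nucleotide excision and lesion bypass and 0.13 over 5 genes of break ends and resection. Other genes of the same roles had a different order of medians. These were −0.36 for recombination, −0.19 for base excision, −0.13 for break ends and −0.058 for checkpoint genes. They were 0.016 for the Fanconi pathway, 0.017 for nucleotide excision, 0.040 for mismatch repair and 0.11 for end joining. Across the 47 genes the fold change had a Spearman rho of 0.024 with the length of the gene on the chromosome, of 0.191 with transcript length and of 0.137 with the mean level, which is given as a description across genes.

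**Figure D2:**
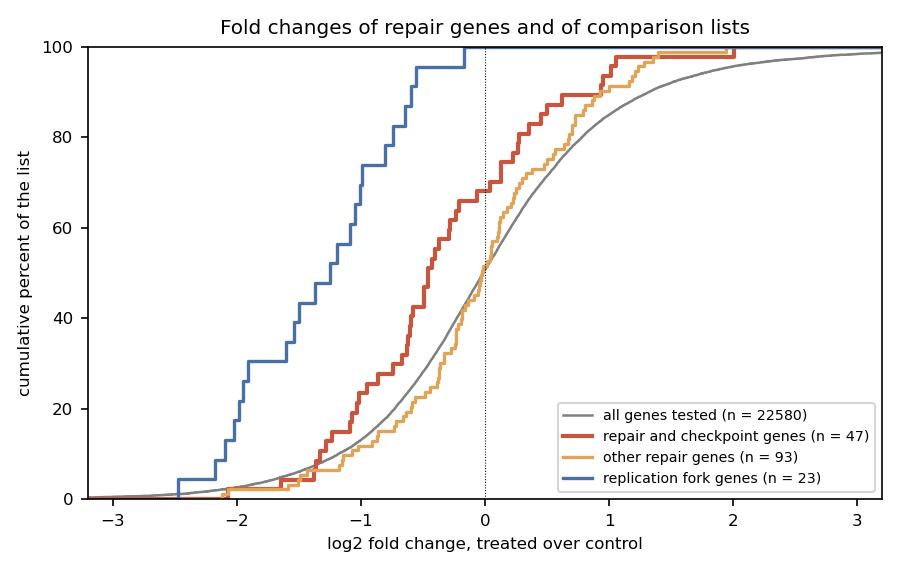
The curves give the cumulative percent of each list (y axis) at or below a log2 fold change of treated over control (x axis) for the 47 repair and checkpoint genes, 93 other repair genes, 23 replication fork genes and all 22580 genes tested. The median of the 47 genes, −0.46, lies between that of the replication fork list, −1.25, and that of the other repair genes, −0.020.

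Promoter sequences are shown here because E2F letters were found in some windows of genes that fell and in some of genes that rose, at different distances from the start. RefSeq windows (GRCh38.p14), running from 250 bases before to 50 bases after the annotated start, were given for 43 of the 47 genes; FANCI, NBN, PRKDC and XRCC5 were not matched. The E2F letters searched on both strands were TTTCCCGC, TTTCGCGC, TTTGCCGC and TTTGGCGC. They occurred in 9 of the 43 windows (20.9%), against 4.97% of the 13682 windows of genes tested here and 3.33% of all 27305 windows. Among the genes with a window, they were found in 5 of 27 that fell (XRCC2, FANCA, FANCC, MSH6 and XRCC6), 3 of 11 that rose (EXO1, PMS2 and XPC) and 1 of 5 that did not pass (FANCD2). The CCAAT letters occurred in 22 of the 43 windows (51.2%, against 36.4% of the windows of genes tested), 15 of them of genes that fell. The cyclic AMP response letters TGACGTCA occurred in 4 windows (9.30% against 3.01%), those of RAD51C, XRCC2, EXO1 and PMS2. The ATF4-C/EBP letters TGATGCAA, searched because the amino acid response uses them, occurred in none of the 43 and in 0.614% of the windows of genes tested, and the cell cycle letters TTTGAA or TTCGAA occurred in 4 (9.30% against 12.2%). A match of letters is a description of the window and not a bound site. Below are the windows of XRCC2 (chr7:152676092-152676391, minus strand) and MSH6 (chr2:47782895-47783194, plus strand), which fell, of EXO1 (chr1:241847954-241848253, plus strand), which rose, each with an E2F match close to the start, and of UNG (chr12:109097347-109097646, plus strand), which fell most and has no such match. Capitals mark the E2F letters on either strand.
XRCC2: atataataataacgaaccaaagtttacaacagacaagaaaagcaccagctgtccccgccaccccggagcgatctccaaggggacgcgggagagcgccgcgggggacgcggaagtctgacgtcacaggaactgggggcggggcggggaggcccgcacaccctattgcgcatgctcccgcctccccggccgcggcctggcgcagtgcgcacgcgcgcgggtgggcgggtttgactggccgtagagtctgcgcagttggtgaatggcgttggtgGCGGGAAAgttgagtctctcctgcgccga
MSH6: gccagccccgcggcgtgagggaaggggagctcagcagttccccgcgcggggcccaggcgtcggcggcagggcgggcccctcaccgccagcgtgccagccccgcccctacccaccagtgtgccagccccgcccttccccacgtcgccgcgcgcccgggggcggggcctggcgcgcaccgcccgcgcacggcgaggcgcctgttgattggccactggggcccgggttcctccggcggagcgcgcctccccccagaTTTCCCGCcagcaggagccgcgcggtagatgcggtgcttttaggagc
EXO1: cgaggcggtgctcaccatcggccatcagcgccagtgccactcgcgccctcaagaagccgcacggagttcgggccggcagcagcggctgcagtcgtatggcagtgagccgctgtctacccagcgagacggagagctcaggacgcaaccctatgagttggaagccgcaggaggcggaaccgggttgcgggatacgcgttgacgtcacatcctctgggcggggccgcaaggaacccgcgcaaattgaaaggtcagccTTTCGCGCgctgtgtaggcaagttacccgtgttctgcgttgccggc
UNG: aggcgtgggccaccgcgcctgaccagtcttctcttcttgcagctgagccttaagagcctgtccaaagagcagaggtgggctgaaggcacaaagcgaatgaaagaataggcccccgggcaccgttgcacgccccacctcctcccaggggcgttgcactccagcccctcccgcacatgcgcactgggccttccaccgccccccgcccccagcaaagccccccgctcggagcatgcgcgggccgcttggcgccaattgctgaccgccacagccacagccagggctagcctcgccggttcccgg

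The 4 genes of base excision repair and of the repair of nicks in the list of 47 fell (34.5% of all genes tested fell). Of 13 other genes of this role, 7 fell, 4 rose and 2 did not pass, with a median log2 fold change of −0.19. UNG, which cuts uracil out of DNA, had the largest fall of the 47 genes. Its level was 78.0, 77.4 and 80.0 CPM in control replicates 1 to 3 and 18.8, 18.3 and 19.0 CPM in treated replicates 4 to 6. The treated libraries thus lay far below all controls, with little scatter in either group. The log2 fold change was −2.07 ± 0.038 (SE), a 4.20-fold fall (edgeR, adjusted p = 8.99e-18). UNG (ENSG00000076248) spans bases 109097574 to 109110992 of chromosome 12 in GRCh38. PARP1, which senses nicks and marks chromatin with poly(ADP-ribose), was 637, 602 and 640.0 CPM in control and 240.4, 243 and 239 CPM in treated libraries. This is a log2 fold change of −1.38 ± 0.030 in an abundant mRNA (edgeR, adjusted p = 5.87e-17). XRCC1, the scaffold that PARP1 recruits to nicks, fell by 0.86 on the log2 scale, from 56.7 ± 0.429 to 31.2 ± 1.10 CPM (SD, n = 3 per group). OGG1, which removes oxidized guanine and shares 25.0% of its exonic bases with CAMK1 on the opposite strand (fell by 0.56), fell by 0.23 on the log2 scale, a call that was lost with library totals as the only scaling (adjusted p = 0.0592) and with limma on log2(TPM + 1) (0.242) or log2(TPM + 0.1) (0.242).

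Of 4 end joining genes in the list of 47, 3 fell and 1 rose, against 34.5% lower and 34.9% higher among all genes tested. Of 12 other genes of this role, 8 rose, 3 fell and 1 did not pass, with a median log2 fold change of 0.11. Within the 4 genes, the split lay between the proteins that hold the ends and the ligase. XRCC6 and XRCC5 encode the subunits of Ku, the ring that threads onto broken ends. XRCC6 was 599, 564 and 589 CPM in control and 241, 257 and 248 CPM in treated libraries. XRCC5 was 599, 567 and 590 CPM in control and 346, 352 and 354 CPM in treated libraries. Both fell with no overlap between groups, XRCC6 by 1.23 ± 0.0315 (adjusted p = 4.96e-16) and XRCC5 by 0.74 ± 0.029 (1.28e-13) on the log2 scale in edgeR. PRKDC, the kinase that Ku recruits, fell by 0.37, from 712 ± 37.0 to 550.5 ± 14.1 CPM. LIG4, the ligase that seals the ends, went the other way. Its level was 27.0, 22.6 and 22.0 CPM in control and 51.6, 47.1 and 46.3 CPM in treated libraries, so every treated library was above every control. LIG4 rose 2.03-fold (log2 fold change 1.02 ± 0.092, edgeR, adjusted p = 0.000120).

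**Figure D3:**
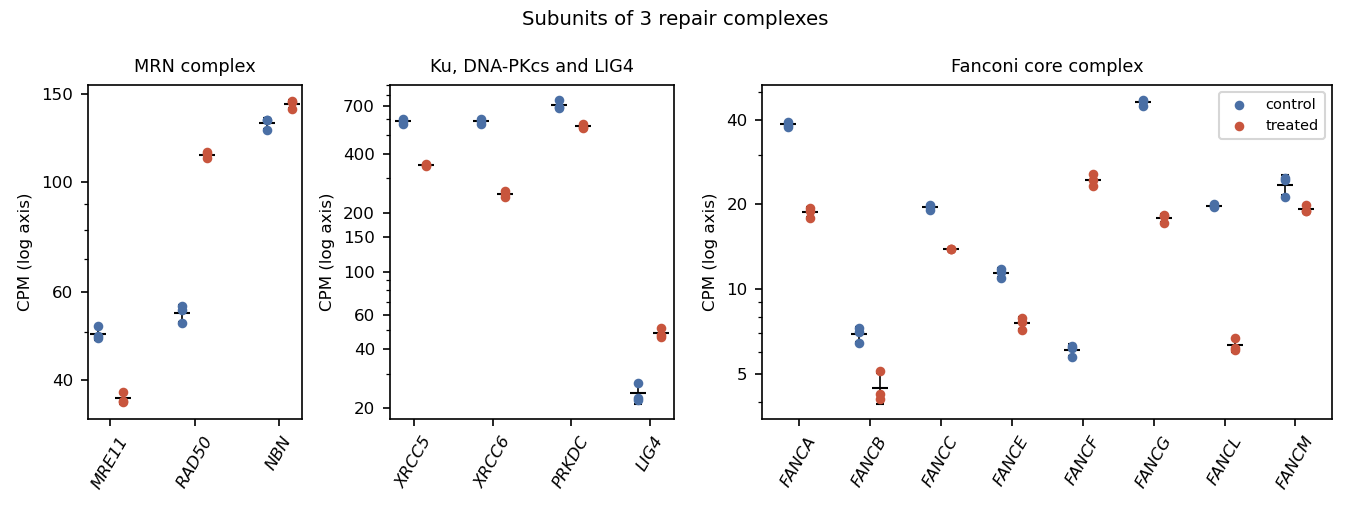
CPM on a log axis is shown for each library (points) with the mean and SD of the 3 libraries of a group (bar and whiskers) for the MRN complex, for Ku with PRKDC and LIG4, and for 8 genes of the Fanconi core complex. In each panel some genes rose while their partners fell: RAD50 to 113 CPM against MRE11, LIG4 to 48.4 CPM against XRCC6, and FANCF to 24.4 CPM against the other 7 core genes.

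In the Fanconi anaemia pathway 8 of 11 genes fell, FANCF alone of the 11 rose, and FANCD2 and BRIP1 did not pass. Among all genes tested 34.5% fell and 34.9% rose. Of 9 other genes of this role, 4 fell, 3 rose and 2 did not pass, with a median log2 fold change of 0.016. The core complex is an assembly that attaches ubiquitin to FANCD2 and FANCI at crosslinked DNA. FANCL, its ubiquitin ligase, was 19.7, 19.7 and 20.1 CPM in control and 6.73, 6.19 and 6.10 CPM in treated libraries, a 3.12-fold fall (log2 fold change −1.64 ± 0.064). FANCG, an adaptor of the core, was 44.9, 46.4 and 46.8 CPM in control and 17.2, 18.3 and 18.2 CPM in treated libraries (−1.36 ± 0.040). It had the lowest adjusted p of the pathway, 3.41e-15 in edgeR. FANCA, its direct partner, was 39.3, 38.2 and 37.7 CPM in control and 18.9, 17.9 and 19.4 CPM in treated libraries, and fell by 1.03 on the log2 scale. FANCA shares 23.6% of its exonic bases with ZNF276 and FANCL 18.7% with VRK2, both on the opposite strand, which rose by 0.14 and 0.13. FANCB fell by 0.63, FANCE by 0.59 and FANCC by 0.49. FANCM, the translocase that anchors the core to DNA, fell by 0.29 (23.5 ± 1.88 to 19.3 ± 0.566 CPM). That call was lost with an offset for effective transcript length, at −0.047 (adjusted p = 0.636), and its sign turned with limma on log2(TPM + 1), at 0.052 (0.696).

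FANCF, an adaptor of the same complex, rose. It was 6.30, 5.75 and 6.19 CPM in control and 25.5, 24.3 and 23.3 CPM in treated libraries, or 347, 292 and 327 against 1358, 1221 and 1140 estimated counts. Every treated library was thus well above every control, a 4.01-fold rise (log2 fold change 2.003 ± 0.064, edgeR, adjusted p = 8.55e-15), the largest of the 47 genes. FANCF (ENSG00000183161) has a single annotated transcript in the table and spans bases 22622890 to 22625841 of chromosome 11. It shares 11.3% of its exonic bases with GAS2 on the opposite strand, which rose too, from 1.04 to 2.09 CPM. Among the substrates, FANCI fell by 0.95, from 114 ± 2.72 to 58.8 ± 0.597 CPM. FANCD2 was 5.03, 7.44 and 10.2 CPM in control and 6.96, 10.1 and 7.78 CPM in treated libraries, so the groups overlapped (log2 fold change 0.13 ± 0.325, adjusted p = 0.755). The helicase BRIP1 was 5.10, 8.63 and 6.61 CPM in control and 7.35, 4.66 and 5.57 CPM in treated libraries (−0.21 ± 0.272, adjusted p = 0.543). For both genes the scatter within a group was wider than the difference between the groups.

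Of 11 genes of homologous recombination, 6 fell, 4 rose and 1 did not pass, against 34.5% lower and 34.9% higher among all genes tested. Of 15 other genes of this role, 8 fell, 6 rose and 1 did not pass, with a median log2 fold change of −0.36. Some partners of the recombinase fell, while others, among them BRCA2 and PALB2, rose. RAD54L, a motor that drives strand exchange, was 19.9, 20.4 and 19.2 CPM in control and 7.86, 8.52 and 8.02 CPM in treated libraries, a log2 fold change of −1.28 ± 0.061. It shares 25.1% of its exonic bases with LRRC41 on the opposite strand, which rose by 0.62. BARD1, which forms a ubiquitin ligase with BRCA1, was 16.5, 17.2 and 15.8 CPM in control and 7.66, 8.38 and 7.45 CPM in treated libraries (−1.07 ± 0.068). In both genes the groups were wide apart. BRCA1 itself was 128, 122 and 127 CPM in control and 101, 104 and 104 CPM in treated libraries and fell by 0.29, a call lost with limma on log2(TPM + 1) (adjusted p = 0.0654) or log2(TPM + 0.1) (0.0648). The recombinase paralogues XRCC2 and RAD51C fell by 0.58 and 0.46, and RAD51AP1, a stimulator of strand pairing, by 0.46.

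PALB2 and BRCA2, which act next to each other in loading the recombinase, both rose. PALB2, the bridge between BRCA1 and BRCA2, was 36.4, 35.3 and 36.6 CPM in control and 67.3, 68.7 and 70.7 CPM in treated libraries, a 1.91-fold rise (edgeR, adjusted p = 1.81e-13). BRCA2, the loader, was 51.4, 49.3 and 53.0 CPM in control and 72.8, 79.6 and 83.8 CPM in treated libraries, a 1.54-fold rise (5.98e-08). In neither gene did the groups overlap. XRCC3, another paralogue, was 29.9, 27.5 and 29.5 CPM in control and 37.5, 35.4 and 38.1 CPM in treated libraries, a 1.28-fold rise. XRCC3 shares 76.7% of its exonic bases with KLC1 on the opposite strand, which fell by 1.05. RAD52, an annealing protein, was 13.1, 13.3 and 11.4 CPM in control and 14.5, 14.96 and 14.7 CPM in treated libraries, a 1.17-fold rise. The call for RAD52 was lost with an offset for effective transcript length (adjusted p = 0.320) and with limma on log2(TPM + 1) (0.134) or log2(TPM + 0.1) (0.129). RAD51D was 21.8, 21.5 and 23.4 CPM in control and 22.7, 23.5 and 22.6 CPM in treated libraries and did not pass (log2 fold change 0.044, adjusted p = 0.433), though it did with library totals as the only scaling (0.12, adjusted p = 0.0327).

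Of 5 genes that recognize and trim break ends, 3 rose, 1 fell and 1 did not pass, against 34.9% higher and 34.5% lower among all genes tested. Of 6 other genes of this role, 3 fell and 2 rose, among them the resection nuclease DNA2, which fell by 1.59, and the helicases RECQL4, which fell by 1.08, and RECQL5, which rose by 0.93 on the log2 scale. MRE11, RAD50 and NBN encode the complex that binds a break first and activates ATM. RAD50, its long coiled-coil subunit, was 56.3, 52.2 and 55.2 CPM in control and 115, 111 and 114 CPM in treated libraries. All 3 treated libraries were well above the controls, a 2.07-fold rise (log2 fold change 1.05 ± 0.036, edgeR, adjusted p = 2.05e-14). RAD50 shares 79.7% of its exonic bases with another annotated gene on the same strand (ENSG00000283782), between which counts could be split. That gene rose too, from 6.24 to 11.5 CPM. NBN, the subunit that binds ATM, was 133, 127 and 133 CPM in control and 145, 144 and 140 CPM in treated libraries, a 1.09-fold rise. Its call was lost with an offset for effective transcript length (adjusted p = 0.288) and with limma on log2(TPM + 1) (0.176) or log2(TPM + 0.1) (0.172). MRE11, the nuclease, fell by 0.43, from 49.6 ± 1.45 to 36.8 ± 0.923 CPM.

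EXO1, the exonuclease that carries resection further, was 97.6, 90.4 and 92.5 CPM in control and 125, 124 and 133 CPM in treated libraries. Every treated library was above the controls, a 1.36-fold rise (edgeR, adjusted p = 4.87e-09), whereas all 23 replication fork genes listed above were lower. The helicase BLM was 15.6, 17.9 and 14.1 CPM in control and 16.7, 11.4 and 17.4 CPM in treated libraries. Its groups overlapped, with a log2 fold change of −0.063 ± 0.208 (adjusted p = 0.809), and its sign depended on the setting.

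Of 6 checkpoint genes in the list of 47, 5 fell and none rose, against 34.5% lower and 34.9% higher among all genes tested. Of 17 other genes of this role, 8 fell, 7 rose and 2 did not pass, with a median log2 fold change of −0.058. CHEK2, the kinase downstream of ATM, was 13.4, 13.5 and 13.9 CPM in control and 5.36, 6.05 and 4.75 CPM in treated libraries, a 2.52-fold fall (log2 fold change −1.33 ± 0.085, edgeR, adjusted p = 1.42e-10). ATRIP, which ties ATR to single-stranded DNA, was 33.1, 33.9 and 32.5 CPM in control and 16.2, 17.6 and 15.5 CPM in treated libraries, a 2.02-fold fall (3.66e-12). In both genes the groups stood far apart. ATRIP shares 27.9% of its exonic bases with TREX1 on the same strand, which fell by 1.25. ATR fell by 0.60 on the log2 scale, from 65.5 ± 3.12 to 43.1 ± 2.52 CPM, and its effector CHEK1 by 0.62, from a mean of 58.9 to 38.3 ± 1.48 CPM. TP53BP1, which shields break ends from resection, fell by 0.41, from 124 ± 2.67 to 93.3 ± 3.43 CPM. It shares 28.7% of its exonic bases with TUBGCP4 on the opposite strand, which fell by 0.66. ATM was 41.0, 29.3 and 38.8 CPM in control and 35.6, 42.8 and 53.0 CPM in treated libraries, an overlap between groups (0.27 ± 0.218, adjusted p = 0.341). ATM passed as higher with an offset for effective transcript length (0.17, adjusted p = 0.0271) and with limma on log2(TPM + 1) (0.26, adjusted p = 0.0340) or log2(TPM + 0.1) (0.27, adjusted p = 0.0316).

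Of the 2 mismatch repair genes in the list of 47, 1 fell and 1 rose, against 34.5% lower and 34.9% higher among all genes tested. Of 3 other genes of this role, 1 fell, none rose and 2 did not pass, with a median log2 fold change of 0.040. MSH6, a subunit of the complex that finds base mismatches, was 76.4, 67.5 and 69.7 CPM in control and 32.1, 35.7 and 32.5 CPM in treated libraries, a 2.13-fold fall (log2 fold change −1.09 ± 0.054). It shares 16.2% of its exonic bases with FBXO11 on the opposite strand, which rose by 0.43. PMS2, a subunit of the nicking endonuclease, was 48.2, 48.3 and 50.8 CPM in control and 69.3, 68.7 and 70.0 CPM in treated libraries, a 1.41-fold rise (edgeR, adjusted p = 7.63e-10). Counts of PMS2 can be shared with its annotated pseudogenes. The groups did not overlap in either gene, as in 73.3% of all genes tested.

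Of 4 genes of nucleotide excision and bypass in the list of 47, 2 fell and 2 rose, against 34.5% lower and 34.9% higher among all genes tested. Of 18 other genes of this role, 5 fell, 6 rose and 7 did not pass, with a median log2 fold change of 0.017. The damage sensors XPC and DDB2 went opposite ways. XPC, which finds helix distortions genome-wide, was 80.0, 78.6 and 82.9 CPM in control and 97.0, 97.3 and 97.1 CPM in treated libraries, a 1.21-fold rise. DDB2, which finds ultraviolet lesions, fell by 0.49, from 57.6 ± 0.896 to 40.9 ± 0.763 CPM, a call lost with limma on log2(TPM + 1) (adjusted p = 0.125) or log2(TPM + 0.1) (0.124). ERCC1, a subunit of the nuclease that cuts beside the lesion and also acts on crosslinks, was 177, 161 and 170.2 CPM in control and 331, 326 and 323 CPM in treated libraries. All 3 treated libraries were far above the controls, a 1.93-fold rise (log2 fold change 0.95 ± 0.033, edgeR, adjusted p = 3.23e-14). ERCC1 shares 28.6% of its exonic bases with POLR1G on the opposite strand, which did not pass (log2 fold change 0.19, adjusted p = 0.124). POLH, the polymerase that copies past ultraviolet lesions, fell by 0.67, from 42.1 ± 0.996 to 26.5 ± 1.17 CPM.

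Levels of different genes were compared per length, as TPM. In control cells XRCC5, XRCC6 and PARP1 were highest at 242 ± 23.4, 226 ± 15.3 and 197 ± 12.4 TPM, and FANCF was lowest at 1.65 ± 0.105 TPM. XRCC5 and XRCC6 were close, with XRCC5 slightly above XRCC6 within each control library, a difference that was not tested. In treated cells ERCC1 had the highest mean of the 47 genes at 168 ± 10.6 TPM, up from 63.7 ± 4.36 TPM, followed by XRCC5 at 150.5 ± 2.44 TPM. The ERCC1 transcript with the highest mean TPM was ERCC1-215, a processed transcript of 508 bases. It held 2.56% of the gene's counts in control and 9.44% in treated libraries. The TPM of ERCC1 thus leans on a short noncoding transcript, while its CPM rose 1.93-fold. For PARP1 the transcript with the highest mean TPM was PARP1-206, a processed transcript of 542 bases. It held 9.18% of the gene's counts in control and 9.02% in treated libraries. Ranks without these short transcripts were not tested. Ratios of TPM within a library between partners were compared for 10 pairs by an exact permutation test, which with 3 against 3 libraries cannot give a two-sided p under 0.10. MRE11 over RAD50 was 0.988, 0.972 and 1.07 in control and 0.315, 0.359 and 0.350 in treated libraries. XRCC5 over XRCC6 was 1.10, 1.07 and 1.03 in control and 1.45, 1.48 and 1.55 in treated libraries, and BRCA1 over BARD1 was 8.28, 8.36 and 8.91 against 11.7, 13.8 and 15.8. In each of these pairs the groups did not overlap (exact permutation p = 0.10, adjusted p = 0.111 over the 10 pairs). PALB2 over BRCA2 was 2.04, 2.26 and 1.76 in control and 2.49, 2.13 and 2.15 in treated libraries, which overlapped (exact permutation p = 0.40).

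The tables list transcripts, so the make-up of a gene could be compared as well. The counts of transcripts annotated as anything but protein_coding (retained introns, targets of nonsense-mediated decay and processed transcripts) were set against those of protein_coding transcripts with limma over 8618 genes. The 41503 transcripts without a match in the annotation were left out, and which genes they belong to was not known. Shares, TPM and fold changes of genes such as RAD50, BRIP1, CHEK2 and FANCD2 may therefore rest on part of their transcripts, coding ones included. Of the 42 repair genes with enough counts of both kinds, 8 had a higher and 2 a lower noncoding share in treated cells. The changed share, 23.8%, is near the 21.6% of all genes tested (13.6% higher, 7.99% lower), so it is not a result about the repair genes as a list. The largest change was in BRIP1, whose noncoding share was 3.51%, 4.38% and 7.04% in control and 48.4%, 47.4% and 47.4% in treated libraries (limma, adjusted p = 0.000946). A target of nonsense-mediated decay, BRIP1-204, went from 0, 8 and 0 to 181, 110 and 123 estimated counts. With protein_coding transcripts alone BRIP1 fell by 1.05 on the log2 scale (edgeR, adjusted p = 0.00554), where the sum over all its transcripts did not pass.

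BRIP1 held 10, 19 and 25 noncoding counts in control and 189, 111 and 129 in treated libraries. In CHEK2 the share rose with fewer coding counts and not with more noncoding ones. Its noncoding share was 34.6%, 40.7% and 35.4% in control and 87.0%, 74.7% and 76.8% in treated libraries. The noncoding counts were 254, 279 and 259 in control and 248, 227 and 178 in treated libraries, and the coding counts 481, 407 and 474 against 37, 77 and 54. The coding transcript CHEK2-208 held 300, 265 and 287 estimated counts in control and 0, 3 and 0 in treated libraries, while the decay target CHEK2-214 held 58, 89 and 82 and then 103, 100 and 62, which overlap. DDB2 had a noncoding share of 25.7% ± 3.50 in control and 44.4% ± 2.28 in treated cells (SD, n = 3 per group), RAD51AP1 35.7% ± 3.41 and 52.7% ± 3.59, ATRIP 14.4% ± 2.57 and 26.6% ± 6.13, FANCL 4.96% ± 0.637 and 14.6% ± 0.990, and RAD54L 2.21% ± 0.703 and 7.57% ± 0.923. XRCC3 went the other way, from 11.0% ± 1.09 to 2.35% ± 0.253, as did EXO1, from 1.16% ± 0.204 to 0.359% ± 0.183. In ERCC1 the counts of coding transcripts differed unevenly, which was not tested per transcript. ERCC1-208 held 1663, 1346 and 1547 estimated counts in control and 6962, 6582 and 6102 in treated libraries, whereas ERCC1-201 held 1169, 1119 and 1181 and then 1209, 999 and 1105. RAD50 counts lay at 94.8% ± 0.838 and 93.3% ± 0.174 on transcripts that are not protein_coding, chiefly RAD50-209, which the annotation calls a target of nonsense-mediated decay. With protein_coding transcripts alone the log2 fold change of RAD50 was 1.45 (edgeR, adjusted p = 2.54e-06).

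**Figure D4:**
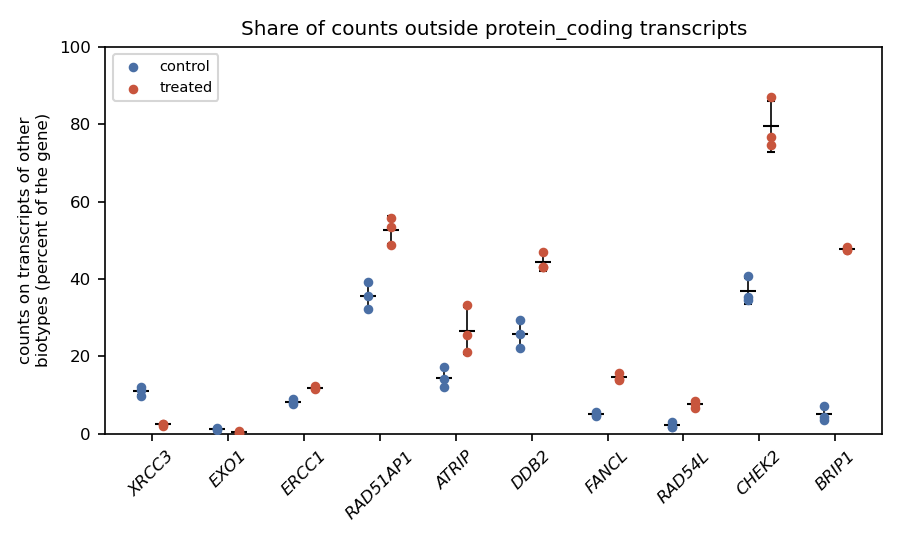
The y axis gives the percent of a gene's estimated counts on transcripts that are not protein_coding, for the 10 repair genes past an adjusted p of 0.05 in limma (points, libraries; bar and whiskers, mean and SD of 3). BRIP1 and CHEK2 show the widest gaps, from 4.98% to 47.7% and from 36.9% to 79.5% on average, and XRCC3 and EXO1 are the 2 that were lower in treated cells.

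**Figure D5:**
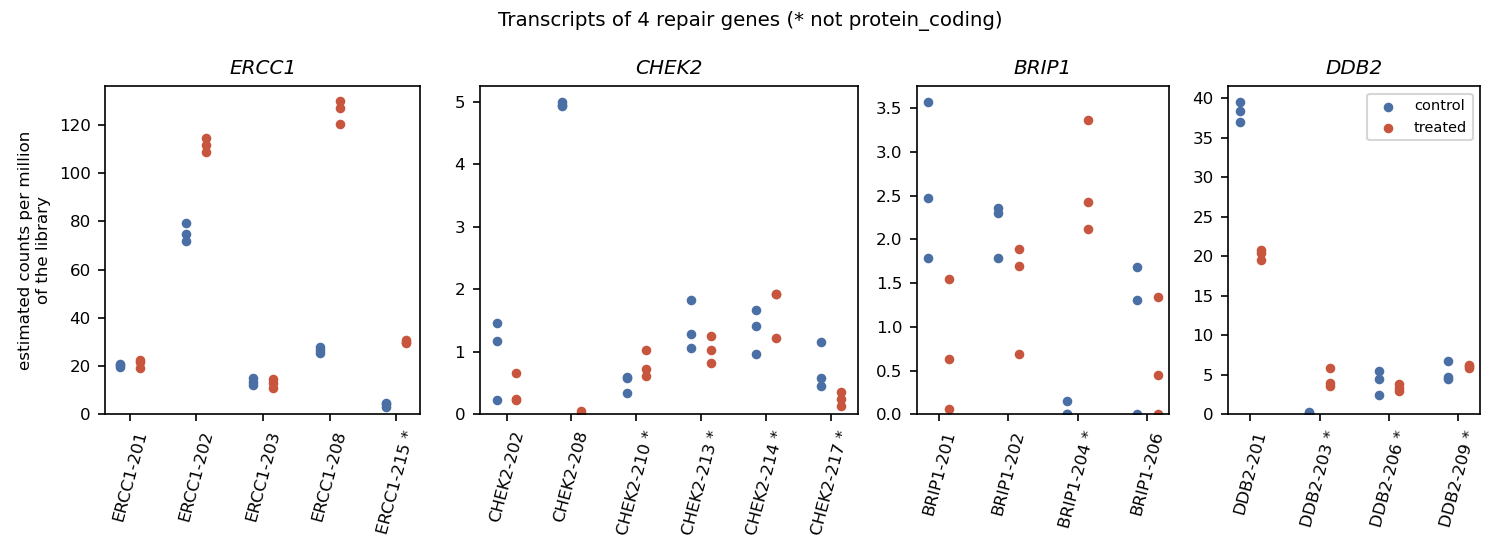
Estimated counts as CPM of the whole library (y axis) are shown for each library and for every transcript that holds at least 5% of the gene's counts in either group, for ERCC1, CHEK2, BRIP1 and DDB2; an asterisk marks transcripts that are not protein_coding. ERCC1-208 is far higher in the treated libraries while the groups overlap for ERCC1-201, CHEK2-208 was near 0 in the treated libraries, and BRIP1-204 and DDB2-203 had few counts in the controls.

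Of 93 other repair genes in the same roles, 39 fell, 36 rose and 18 did not pass, with a median log2 fold change of −0.020. These shares, 41.9% and 38.7%, are near those of protein-coding genes given above. With limma on log2(TPM + 1) 23 fell and 33 rose. Partners of the 47 genes were found on both sides. CLSPN, which presents CHEK1 to ATR, was 214, 207 and 214 CPM in control and 49.1, 51.03 and 50.4 CPM in treated libraries, a log2 fold change of −2.08 (edgeR, adjusted p = 1.25e-18). RPA1, which coats single-stranded DNA, fell by 1.49, and UBE2T, the conjugating enzyme that serves FANCL, by 1.51. RNF168, a ubiquitin ligase that marks chromatin around breaks, was 40.6, 40.6 and 40.5 CPM in control and 92.7, 91.9 and 91.5 CPM in treated libraries, a log2 fold change of 1.18 (1.59e-15). RAD17, the loader of the checkpoint clamp, rose by 1.24 and EME1, a nuclease subunit, by 1.21 on the log2 scale. MDC1 and RNF8, which act just before RNF168 at breaks, rose by 0.47 and 0.30. ERCC4, the nuclease subunit that pairs with ERCC1, rose by 1.28, as ERCC1 did.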

How the data were processed

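Per the file headers, the authors deposited, for each of 6 libraries, a table of 244939 transcripts with estimated counts (not whole, not scaled between libraries), TPM and lengths. Of tools, kallisto 0.45.0 and DESeq2 1.30.0 are named, without a role, per the submitters' processing notes. Index, build and library strand are not given in the sources used here. By identifier, 203436 transcripts were matched to GENCODE 29 (GRCh38) and summed to genes. The other 41503 (4.86% to 5.13% of counts) were left out, which can lower a gene's level and move its noncoding share and fold change.

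Gene sums were rounded and filtered with filterByExpr (minimum count 10, minimum total 15), scaled by TMM and tested with edgeR 4.0.16 (quasi-likelihood, robust, two-sided), with Benjamini-Hochberg over all genes. The SE was taken from the fold change and its F statistic. Fold changes are treated over control and relative to the typical gene. The noncoding share was tested with limma 3.58.1 on log2 ratios with 0.5 counts added, for genes with a mean of at least 20 counts of each kind. The edgeR, DESeq2 and noncoding share tests were run on simulated data with few changed genes, balanced between directions. In the real data 69.4% of genes tested passed, so the simulation does not check scaling or error rates under such wide change. The permutation test and the limma fits on TPM were not simulated. DESeq2 1.42.0 was an alternative.

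The genes and lists were chosen with earlier results of these data known. Values per library are given for genes that changed at least 2-fold, rose, did not pass, or had the lowest adjusted p of their role, and of the other repair genes the 3 with the lowest adjusted p in each direction are named, beside partners in a complex. DNA2, RECQL4 and RECQL5 were named, ERCC1, CHEK2, BRIP1 and DDB2 were chosen for the transcript plot, and the promoters for printing, after their values were seen. Of the 47 genes, 26 share exonic bases with another annotated gene, 7 of them on the same strand, and 9 have an annotated pseudogene by name (CHEK2, FANCD2, MRE11, PARP1, PMS2, POLH, RAD51AP1, UNG and XRCC6). Reads of these cannot be told apart with certainty. How far kallisto's division of reads among transcripts adds error is not recorded in the tables.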

Additional observations from a re-analysis of the deposited data

How the results depend on the processing

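The counts of 30 genes that fell and 12 that rose were stable: 15 alternatives gave 26 to 31 and 11 to 13, and every version without a library gave 30 and 12. Among all genes tested the share that fell ran from 19% with no filter on low counts to 42.1% with a stricter filter. The share that rose ran from 20.4% to 42% in the same 2 settings. The counts alone thus do not show how far the list stood from all genes in each setting. Without a library, the median log2 fold change ran from −0.47 to −0.42, the genes at least 2-fold lower from 10 to 11, and those with a changed noncoding share from 7 to 9. The median was −0.38 with library totals, −0.27 and −0.29 with limma on log2(TPM + 1) and log2(TPM + 0.1), −0.39 with an offset for effective length and −0.40 with protein_coding transcripts only. With limma on log2(TPM + 1) and log2(TPM + 0.1), 6 and 7 genes were at least 2-fold lower, and 23 other repair genes fell in each. Of the 47 genes, 36 kept their direction and side of the threshold under all 15 alternatives. The sign turned for 4, 3 of which had not passed. BLM was 0.011 with library totals, 0.12 and 0.13 with limma on log2(TPM + 1) and log2(TPM + 0.1), 0.062 with the offset, 0.36 with protein_coding transcripts only, and −0.15 to 0.14 when each library was left out in turn. FANCD2 was −0.16 and −0.17 with limma, −0.31 with the offset, and −0.094 to 0.41 when each library was left out in turn. BRIP1 was 0.26 and 0.35 with limma, 0.26 with the offset and 0.0049 without control replicate 2. FANCM was 0.052 and 0.059 with limma. The cause was not tested. No paired analysis was possible because the groups share no replicate number.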
